A study of Homo sapiens with 2 samples.

Results

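The miRNAs described here come from the imprinted cluster on chromosome 14 at band 14q32. They were chosen by name, as every probe of the array whose name carries 1 of the cluster's miRNA numbers with either arm, a rule that uses no measured value, though the cluster was picked with earlier results of these data known. This gave 91 of the 2565 miRNA probes, from 48 miRNA numbers. The cells were 22Rv1, a line derived from a human prostate tumour xenograft and positive for the androgen receptor, kept in RPMI1640 medium. A culture left untreated and a culture given 25 µM luteolin, a plant flavone, were both taken at 48 h. For each, 250 ng of total RNA was labelled with the dye Cy5 and hybridized to 1 Toray 3D-Gene array. Each condition has 1 array, so no difference could be tested, and the values describe this pair of arrays.

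The cluster lies in the DLK1-DIO3 domain, where the maternal chromosome makes only non-coding RNAs, among them MEG3, MEG8 and the miRNAs, and the paternal chromosome makes the proteins DLK1, RTL1 and DIO3. A first group of hairpins is transcribed antisense to RTL1, and its miRNAs can cut the RTL1 message. A long second group runs from miR-379 to miR-410, and many of its hairpins are close copies of each other. These miRNAs are best known from brain, placenta and embryonic tissue. In prostate cancer, miR-154-3p, miR-379 and the arms of miR-409 have been reported to promote epithelial-mesenchymal transition and bone metastasis.

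Of the 91 members, 90 matched a mature sequence in RefSeq on GRCh38.p14, all on the plus strand of chromosome 14, and 1, miR-668-3p, did not. The sequences below are those of the 10 members whose signal exceeded every Negative Control spot on at least 1 array, and of miR-154-3p, which shares a seed with miR-487a-3p. The first 4 exceeded those spots on both arrays and carry the comparison between the conditions. They are written 5′ to 3′ with the seed, bases 2 to 8, in capitals.
hsa-miR-494-3p (chr14:101029681-101029702): uGAAACAUacacgggaaaccuc
hsa-miR-487b-3p (chr14:101046505-101046526): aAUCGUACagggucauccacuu
hsa-miR-431-3p (chr14:100881069-100881090): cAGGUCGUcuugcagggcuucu
hsa-miR-665 (chr14:100875075-100875094): aCCAGGAGgcugaggccccu
hsa-miR-370-3p (chr14:100911186-100911207): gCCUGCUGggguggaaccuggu
hsa-miR-134-3p (chr14:101054732-101054754): cCUGUGGGccaccuagucaccaa
hsa-miR-409-3p (chr14:101065346-101065367): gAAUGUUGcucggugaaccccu
hsa-miR-487b-5p (chr14:101046469-101046490): gUGGUUAUcccuguccuguucg
hsa-miR-433-5p (chr14:100881897-100881918): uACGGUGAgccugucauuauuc
hsa-miR-487a-3p (chr14:101052494-101052515): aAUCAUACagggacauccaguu
hsa-miR-154-3p (chr14:101059805-101059826): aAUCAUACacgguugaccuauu

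Most of the cluster gave no signal that could be told from background. The 320 blank spots averaged 81.0 units in the control and 66.2 with luteolin. The limit of detection, the blank mean plus 2 SD, was 84.0 and 67.3 units. On the control array 15 of 91 members (16.5%) exceeded it, against 31.6% of all miRNA probes. On the luteolin array 23 members (25.3%) did, against 38.4% of all. Both arrays listed 11 members (12.1%), against 27.3% of all. These 11 were 73.3% of the control list and 47.8% of the luteolin list, against 86.4% and 71.2% over all miRNA probes. The blank SD was 0.591 units with luteolin and 1.48 in the control, so the limits differ in strictness and the counts of the separate arrays cannot be set against each other.

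The limit is a lenient one, since the Negative Control spots reached above it. The 32 of them ranged from 78.8 to 93.7 units in the control and from 64.5 to 69.4 with luteolin. On the control array 4 members (4.40%) exceeded every such spot, against 12.1% of all miRNA probes. With luteolin 10 members (11.0%) did, against 23.1% of all. The highest Negative Control spot stood 12.8 units above the blank mean in the control and 3.23 with luteolin. This cut was thus stricter on the control array, and these counts too cannot be set against each other. The 4 members of the control array also exceeded those spots on the luteolin array, as did 12.1% of all miRNA probes. They were miR-494-3p, miR-487b-3p, miR-431-3p and miR-665. The other 7 members listed on both arrays lay inside the Negative Control range in the control, where a miRNA's signal is not separated from unspecific signal, and their ratios enter only the counts and medians over the 11 and the plots.

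**Figure D1:**
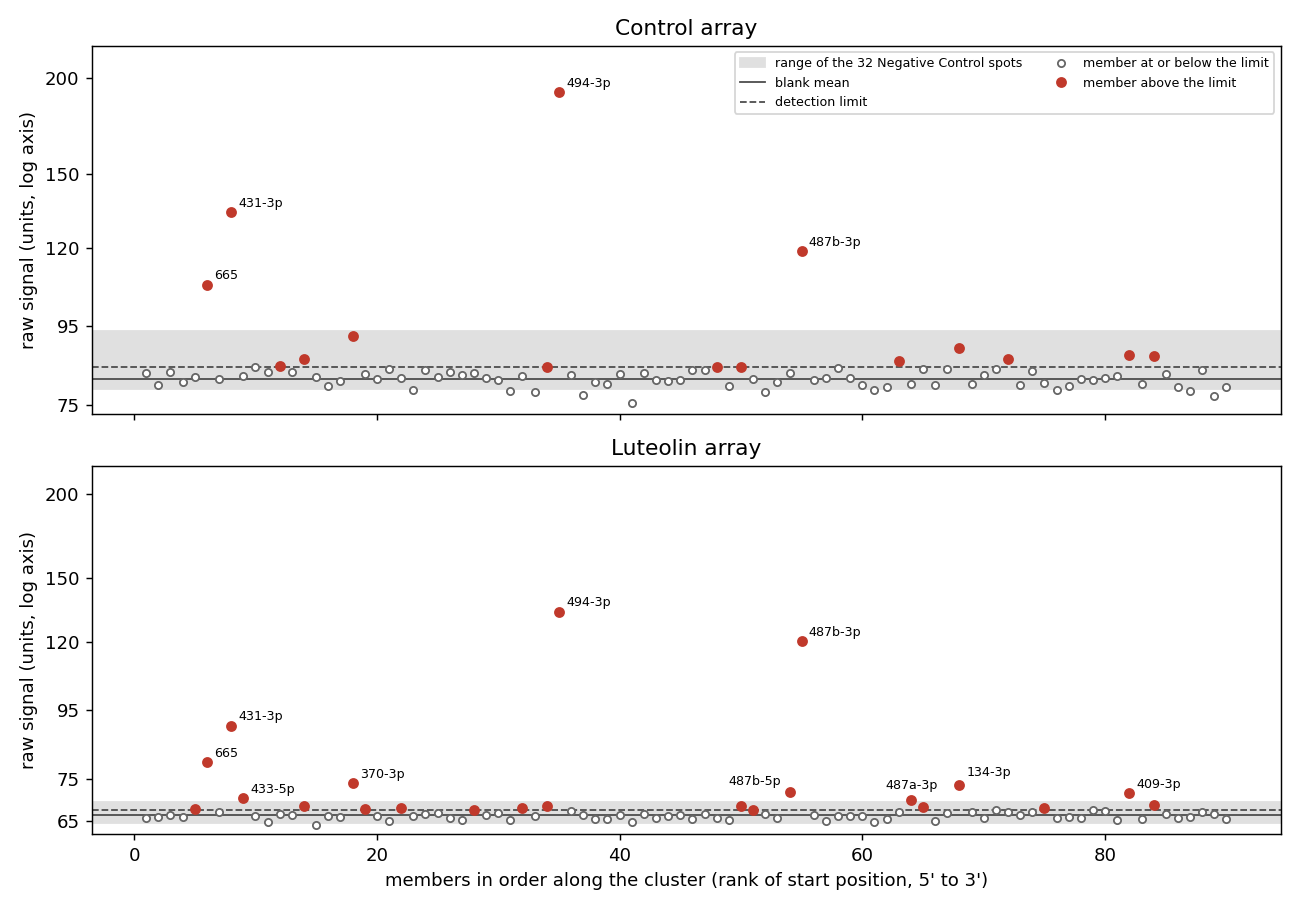
Raw signal (units, log axis) of the 90 members with a RefSeq position, in order of start position along the cluster, on the control array (top) and the luteolin array (bottom). Filled points exceed the detection limit (dashed), the grey band is the range of the 32 Negative Control spots, and labelled points exceed that band: 4 in the control and 10 with luteolin.

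The members that stood clear of background differed in their ratio between the arrays. Levels below are on the authors' scale, which subtracts the blank mean and multiplies each array by a factor. On this scale the median luteolin over control ratio of the 701 miRNAs listed on both arrays is 1. The ± after a level or a log2 ratio is the SD expected between repeated spots within an array. It covers neither culture nor array variation. Probes bind with different strength, so the levels of different miRNAs are not compared with each other.

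MiR-487b-3p (MIMAT0003180), reported in lung cancer to repress BMI1 and SUZ12, was the member with the highest ratio. Its raw signal was 118.8 units in the control and 120.4 with luteolin, although the blanks were dimmer with luteolin. Of the 4 members above every Negative Control spot on both arrays, 1, miR-487b-3p, had a higher raw signal with luteolin. So did 56 (18.1%) of the 310 such miRNAs. A probe near the level of the blanks could not do so, as the blanks were dimmer with luteolin. After blank subtraction alone the signal of miR-487b-3p was 37.9 and 54.3 units, a 1.43-fold difference with no scaling between the arrays. Of the 310, 25.2% were higher with luteolin after this step. On the authors' scale the level was 115 ± 9.56 in the control and 251 ± 15.9 with luteolin. This is a 2.19-fold higher level, a log2 ratio of 1.13 ± 0.15. Among the 310 miRNAs above every Negative Control spot on both arrays, 43 had a higher ratio.

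MiR-494-3p (MIMAT0002816), reported to repress CXCR4 in prostate cancer cells, was listed on both arrays by a wide margin. Its raw signal was 191.6 units in the control and 133.3 with luteolin. On the authors' scale these were 336 ± 25.0 and 311 ± 19.5, a log2 ratio of -0.11 ± 0.14, so the difference was smaller than the error between spots. MiR-431-3p (MIMAT0004757), the partner arm of miR-431-5p, read 133.7 and 90.0 units. Its level was 160 ± 12.6 in the control and 111 ± 7.41 with luteolin, a log2 ratio of -0.53 ± 0.15. MiR-665 (MIMAT0004952), from the same RTL1-antisense group, read 107.6 and 79.4 units. Its level was 80.7 ± 7.44 and 61.5 ± 4.71, a log2 ratio of -0.39 ± 0.17. MiR-431-3p and miR-665 were thus lower with luteolin on this scale by more than 2 spot errors, and by less than 2-fold.

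**Figure D2:**
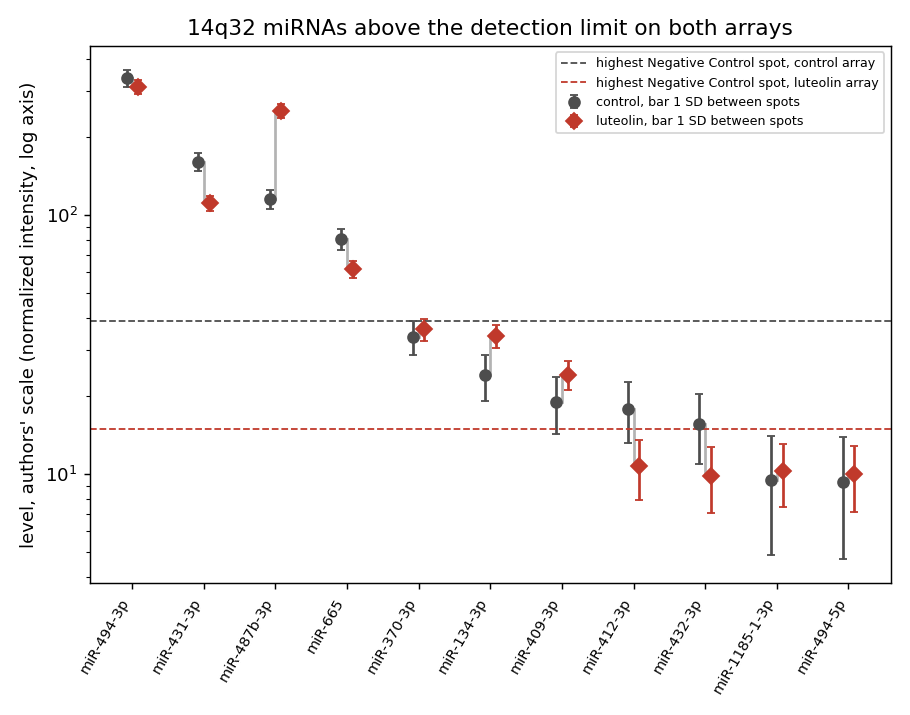
Level on the authors' scale (normalized intensity, log axis) of the 11 members listed on both arrays, control as circles and luteolin as diamonds, with bars of 1 SD expected between spots. MiR-487b-3p goes from 115 to 251, while miR-494-3p, miR-431-3p and miR-665 are lower with luteolin on this scale and the other 7 control levels lie below the dashed line for the control array's Negative Control spots.

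A comparison between members is free of any factor applied to a whole array. The log2 ratio of miR-487b-3p exceeded that of miR-494-3p by 1.24 ± 0.21, a 2.36-fold difference in ratio. It exceeded that of miR-431-3p by 1.66 ± 0.21 and that of miR-665 by 1.52 ± 0.23. All 3 gaps were several times their spot error. MiR-494-3p has the same share of G and C as miR-487b-3p, 45.5%, while miR-431-3p and miR-665 have 59.1% and 70%. Ratios over all miRNAs moved with this share, as given below, and its part in the gaps was not tested. With the normexp background method, an offset of 50 and quantile normalization, called the offset scale, the 3 gaps were 0.69, 0.69 and 0.50. That offset pulls the ratios of dim spots towards 0.

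By the size rule of 2-fold, 1 of the 11 members listed on both arrays, miR-487b-3p, stood higher with luteolin and 0 stood lower. Over all 701 miRNAs listed on both arrays 13.4% passed 2-fold upwards and 5.14% downwards, so the cluster's share was near the background. Of the 4 members above the Negative Control spots, 1 was at least 2-fold higher and 0 lower, against 18.4% and 0.645% of the 310 such miRNAs. The median log2 ratio of the 11 members, 7 of them inside the Negative Control range in the control, was 0.10, with 6 above 0 and 5 below, and that of all 701 was 0.00. The median of the 4 was -0.25, against 0.04 for the 310. On the offset scale 0 members passed 2-fold in either direction, against 0.143% of all miRNAs higher and 0% lower.

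**Figure D3:**
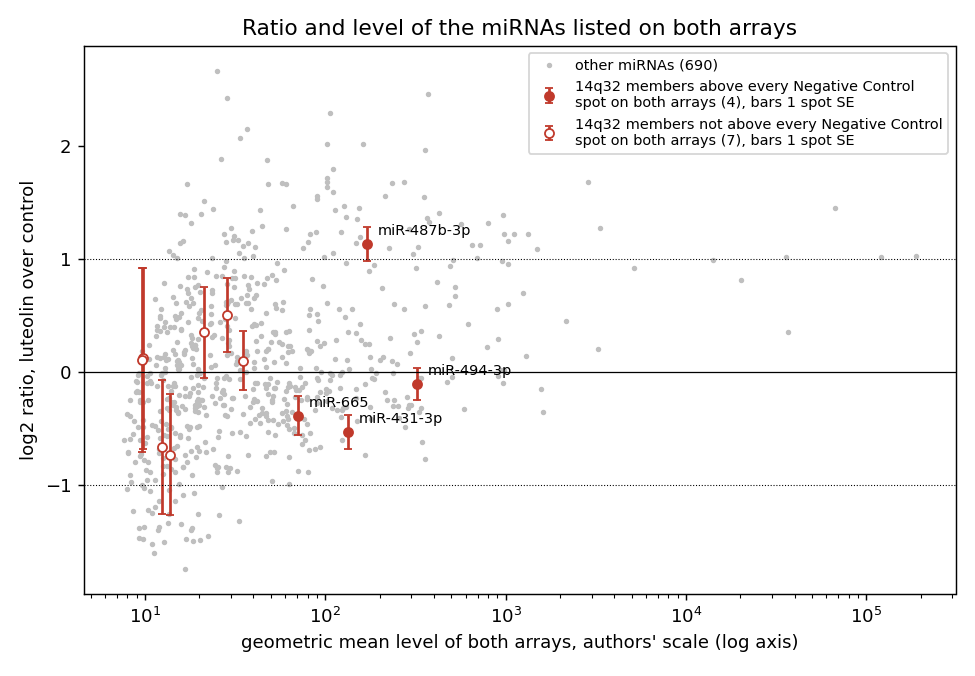
Log2 ratio of luteolin over control against the geometric mean level of both arrays (log axis), on the authors' scale, for the 701 miRNAs listed on both arrays. The 11 members are in red with bars of 1 spot SE, filled for the 4 above every Negative Control spot on both arrays and open for the other 7. MiR-487b-3p lies above the upper dotted line at 2-fold and no other member passes either dotted line.

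The direction of the ratios depended on the scaling, except for miR-487b-3p. Its log2 ratio was above 0 in each of 7 other scalings, between 0.34 and 1.86. MiR-494-3p was below 0 in 5 of them and above 0 in 2, between -0.72 and 0.62. MiR-431-3p and miR-665 were below 0 in 6 and above 0 in 1, the scaling on bright control probes, where they stood at 0.20 and 0.34. Those 5 control probes were 2.42- to 2.73-fold dimmer with luteolin after blank subtraction, and scaling on them moved the median of all miRNAs to 0.73. Of the 8 scalings, 5 multiply a whole array by 1 factor and so cannot move a member relative to the median of all miRNAs. In these 5 miR-487b-3p lay 1.13 above that median, and miR-494-3p, miR-431-3p and miR-665 lay 0.11, 0.53 and 0.39 below it on the log2 scale. In the 3 that change the background or the offset, miR-487b-3p lay 0.36 to 0.84 above the median, and the others lay below it, miR-665 by 0.14 to 0.72.

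**Figure D4:**
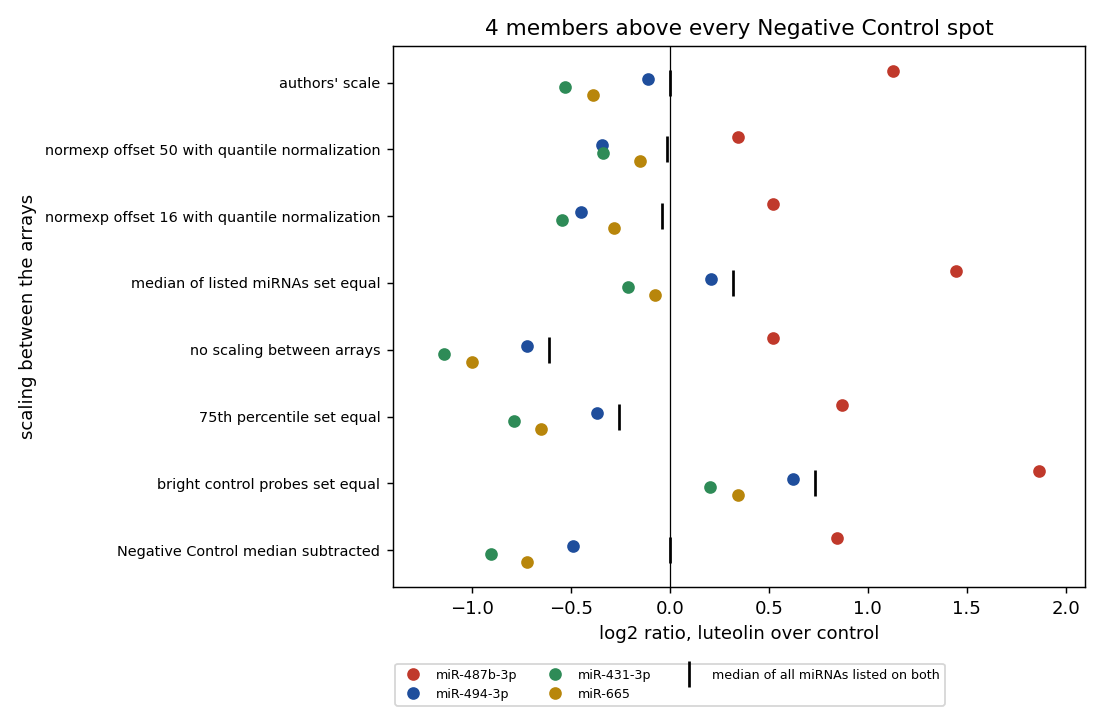
Log2 ratio of luteolin over control of the 4 members above every Negative Control spot under the authors' scale and 7 other scalings, with the median of all miRNAs listed on both arrays as a black bar. In 5 scalings the bar and the members move together by construction. In the 3 that change the background or the offset, miR-487b-3p is to the right of the bar and the other 3 members are to its left.

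The share of G and C in a miRNA moved with both the signal and the ratio on these arrays. Across the 270 miRNAs with a sequence that stood above all Negative Control spots of both arrays, the median log2 ratio was 1.48 below 40% G+C, 0.95 from 40% to under 50%, 0.17 from 50% to under 60%, -0.07 from 60% to under 70% and -0.14 from 70%. MiR-487b-3p and miR-494-3p have the same composition, 45.5% G+C. Within their band, whose quartiles were 0.36 and 1.24, 14 of the other 40 miRNAs had a higher ratio than miR-487b-3p and 38 of the other 40 had a higher ratio than miR-494-3p. MiR-431-3p, at 59.1% G+C, had a lower ratio than 53 of the other 59 miRNAs of its band. MiR-665, at 70%, had a lower ratio than 74 of the other 90. So miR-487b-3p stood among miRNAs of like composition, and the other 3 stood below the lower quartile of theirs. The part of base composition in these ratios was not tested.

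**Figure D5:**
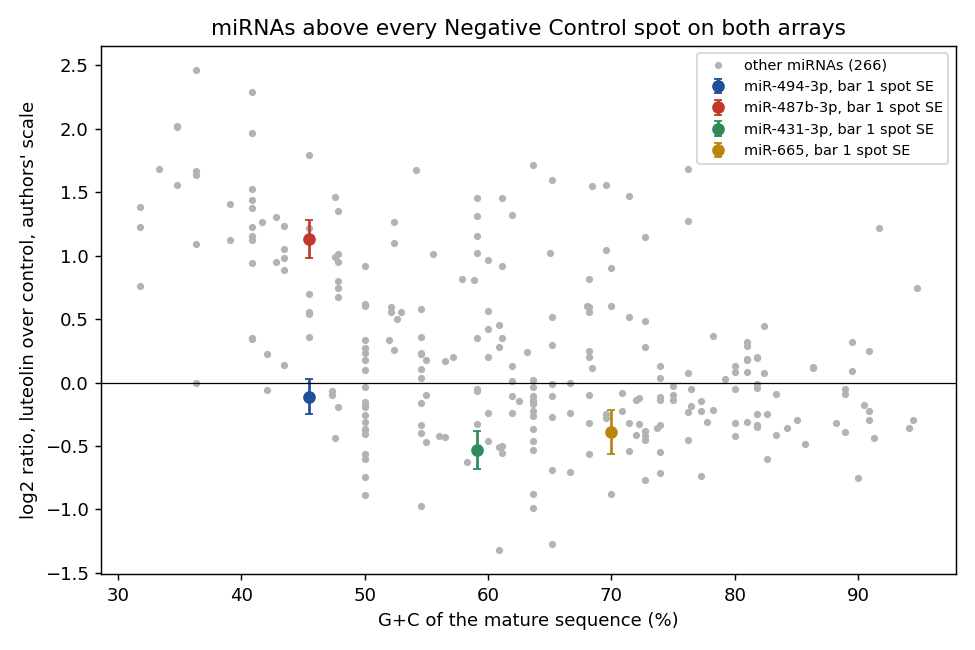
Log2 ratio of luteolin over control on the authors' scale against G+C of the mature sequence (%), for the 270 miRNAs with a sequence above every Negative Control spot on both arrays. The 4 members are coloured with bars of 1 spot SE; miR-487b-3p and miR-494-3p share 45.5% G+C and stand at 1.13 and -0.11.

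The remaining members above the Negative Control spots were so on the luteolin array alone. MiR-370-3p, reported to repress FOXO1 in prostate cancer cells, read 92.1 units in the control and 74.0 with luteolin. MiR-134-3p, the partner of the neuronal miR-134-5p that represses LIMK1 in rat, read 88.9 and 73.5 units. MiR-409-3p read 87.2 and 71.4 units. The control signal of all 3 lay inside the Negative Control range and the luteolin signal above it.

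Members of the miR-487 pair were also seen on the luteolin array. MiR-487b-5p, the partner arm of miR-487b-3p, read 82.6 units in the control and 71.6 with luteolin, and miR-487a-3p read 79.9 and 69.8. MiR-433-5p, from the RTL1-antisense group, read 81.8 and 70.2. These 3 were unlisted in the control and above every Negative Control spot on the luteolin array. No lower bound above 1 could be set for any of the 6 members that exceeded these spots on the luteolin array alone. Their luteolin levels on the authors' scale, 16.6 to 36.1, were below 38.9, the lowest level that exceeded the Negative Control spots on the control array. Both arms of the miR-487b hairpin thus exceeded the Negative Control spots with luteolin, and the 3p arm alone did so in the control. As that cut was stricter in the control, this gives no difference between the conditions for the 5p arm.

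The miR-487a and miR-487b arms are close in sequence. With positions counted from 1 at the 5′ end, miR-487a-3p differs from miR-487b-3p by the substitutions G5A, U13A and C20G, of which the first lies in the seed. MiR-487a-5p differs from miR-487b-5p by U14C, C15U and C16G, outside the seed, and both carry the seed UGGUUAU. MiR-487a-5p read 85.7 and 67.0 units, above the limit on the control array alone. Whether one member's RNA bound another's probe was not tested. For miR-494-3p the nearest sequences on the array were miR-382-3p and miR-496, each at an edit distance of 8, and both read below the detection limit on both arrays. For miR-665 they were miR-4484 and miR-4513, each at a distance of 7. MiR-4484 read 258.0 units in the control and 222.0 with luteolin, and miR-4513 read 96.9 and 75.8. Whether their RNA bound the probe of miR-665 was not tested.

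The other 4 members listed on both arrays lay inside the Negative Control range on both. MiR-412-3p read 86.9 and 68.5 units, and miR-432-3p 86.1 and 68.3. MiR-1185-1-3p read 84.1 and 68.4 units and miR-494-5p 84.0 and 68.3. The spot SE of their log2 ratio ran from 0.54 to 0.82, so their direction is undefined.

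Of the members reported in prostate cancer metastasis, miR-409-3p was listed on both arrays, as above. MiR-154-3p read 80.0 units in the control and 67.9 with luteolin, and miR-379-5p read 82.3 and 67.7. Both were listed on the luteolin array alone and lay inside its Negative Control range. MiR-409-5p, at 81.8 and 65.2 units, was below the limit on both. In all, 12 members (13.2%) were listed on the luteolin array alone, at 67.4 to 71.6 units, against 11.0% of all miRNA probes. Among these 12, the widely studied miR-382-5p read 83.5 units in the control and 68.0 with luteolin, inside the Negative Control range of each array. On the control array alone 4 members (4.40%) were listed, at 84.1 to 86.0 units, against 4.29% of all. Both shares were near the background. The 4 were miR-127-3p, which represses BCL6 and can cut RTL1, with miR-300, miR-323b-5p and miR-487a-5p. MiR-127-3p read 84.3 units in the control and 66.4 with luteolin, so both signals were within the range of the Negative Control spots.

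The remaining 64 members were listed on neither array. Their raw signals ran from 75.4 to 83.9 units with a median of 80.9 in the control, and from 64.1 to 67.3 with a median of 66.0 with luteolin, which is the level of the blanks. Of 23 arms that are widely studied, 16 were in this class, among them miR-134-5p, miR-154-5p, miR-376a-3p, miR-381-3p, miR-410-3p, miR-433-3p, miR-485-5p, miR-495-3p and miR-654-3p. For these the arrays give no level, only a signal within the detection limit. MiR-376a, whose seed is known to be edited in mouse and human, could not be compared between the conditions for this reason.

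More 3p than 5p arms of the cluster were listed. Of 43 members named as 5p arms 1 (2.33%) was listed on both arrays, and of 42 named as 3p arms 9 (21.4%) were. Over all miRNA probes of the array the order was the other way, with 31.8% of 866 5p arms and 22.9% of 883 3p arms listed on both arrays. The difference between the members and all miRNAs in this respect was not tested. Of 41 numbers with both arms on the array, miR-494 had both arms listed on both arrays, 8 had the 3p arm alone and 0 the 5p arm alone. Most of these listed arms lay inside the Negative Control range in the control. Above every Negative Control spot on both arrays stood 0 of the 43 5p arms and 3 of the 42 3p arms (7.14%), against 12.1% of all miRNA probes. The RTL1-antisense group was taken as a list of miRNA numbers, and the overlap of each hairpin with RTL1 was not checked. The miR-379 to miR-410 group holds the other numbers apart from miR-370 and miR-770, among them miR-656, which lies beyond miR-410. In the RTL1-antisense group 3 of 15 members (20.0%), miR-665, miR-431-3p and miR-432-3p, were listed on both arrays. In the miR-379 to miR-410 group 7 of 73 (9.59%) were, as was miR-370-3p between the groups, against 27.3% of all miRNA probes. The median G+C was 54.5% in the first group and 45.5% in the second, and its part in these counts was not tested.

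Members that share a seed were listed alike for some seeds and differently for others. Of 10 seeds carried by more than 1 member, AUCAUAC, of miR-154-3p and miR-487a-3p, was listed for both on the luteolin array alone. UAUACAG belongs to miR-1185-1-3p, listed on both arrays, and to miR-1185-2-3p, listed on the luteolin array alone. GGUUGUC belongs to miR-494-5p, listed on both arrays, miR-323b-5p, on the control array alone, and miR-410-5p, on neither. AUACAAG belongs to miR-300, listed in the control alone, and miR-381-3p, on neither.

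The members are poorer in G and C than the other miRNAs, at a median of 45.5% against 52.2% over the 2253 miRNAs with a sequence. The 11 listed on both arrays had a median of 56.5%, and the 64 listed on neither 45.5%. Below 45% G+C, 1 of 35 members (2.86%) was listed on both arrays, against 9.81% of all miRNAs of that composition. From 45% to under 55% it was 4 of 41 (9.76%), against 17.6%. From 55% it was 6 of 14 (42.9%), against 46.2%. Across the 90 members Spearman's rho of G+C with signal was 0.43 on each array, and over all 2253 it was 0.45 and 0.51, as a description of probes that share an array.

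Other large clusters with restricted expression were also mostly unlisted. Of 47 arms of the chromosome 19 cluster, known from placenta, 4 (8.51%) were listed on both arrays and 0 exceeded the Negative Control spots on both. Of 30 arms of the Xq27 cluster, known from testis, 1 (3.33%) was listed on both and it exceeded those spots on both. These shares were not tested against that of the 14q32 members. Of the markers chosen for the labelled cell type, 5 of 5 prostate epithelial miRNAs stood above all Negative Control spots of both arrays, with miR-200c-3p at 490.6 and 361.7 units and miR-141-3p at 140.3 and 217.6. Other epithelial miRNAs outside that list, looked up after the values were seen, did not: miR-200a-3p read 83.9 and 70.2 units, miR-429 82.9 and 65.7, miR-205-5p 83.4 and 66.1, and miR-203a-3p 82.3 and 67.2. All 4 were unlisted in the control, and miR-200a-3p was listed with luteolin. Of the markers of other cells, 1 of 4 blood, 0 of 5 muscle and stromal, 1 of 4 neural (miR-9-5p) and 0 of 1 liver marker did so on both. The summed signal above the blanks of the 4 neural markers was 23.1 units in the control and 38.0 with luteolin, and that of the 4 blood markers was 17.7 and 5.80. Their part in the values of the cluster was not tested.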

How the data were processed

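MiRNA levels were measured with 1 single-colour array per condition, each with 3200 spots, 2565 of them miRNA probes spotted once. Per the file headers, the authors deposited intensity on a linear scale as raw data, after background subtraction and after global normalization, with a further adjusted column for the luteolin array. From the values, the authors subtracted the mean of the blank spots trimmed by 5% at each end, listed a miRNA above that mean plus 2 SD, and multiplied by 3.03 (control) or 5.77 and then 0.803 (luteolin). The listing of all 2565 miRNAs followed this rule on both arrays. The first factor put the median of the listed miRNAs at 25 on each array. No source used here gives the basis of the adjustment by 0.803, after which the median ratio of the miRNAs listed on both arrays was 1. The authors' summary table repeats the final intensity values.

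Computed here were log2 ratios of these final values and spot errors, which combine the blank SD with the pooled coefficient of variation of repeated spots of 5 bright control probes, 7.34% (control) and 6.23% (luteolin). The blank SD used was that after trimming. Over all 320 blanks the SD was larger, 1.90 units in the control and 0.804 with luteolin. Members above the highest Negative Control spot were counted as a stricter class, and a member in that class on only 1 array could have its ratio given only as a bound. The offset scale used normexp (limma 3.58.1, R 4.3.3). Other work used Python 3.11.15, numpy 2.4.6, pandas 2.3.3 and matplotlib 3.10.9. The limit, scaling and ratio steps were run on a simulated pair of arrays with known folds, where only ratios on the authors' scale were checked. That simulation held no shift with G+C and left out the offset scale. Sequences are from RefSeq (GRCh38.p14). The number of arrays limits the precision. The members and lists were chosen with earlier results of these data known. Named members were those listed on both arrays, those above every Negative Control spot on either array, and 23 widely studied arms given by their counts where unlisted; miR-409-5p, miR-154-3p, miR-300, miR-323b-5p, miR-487a-5p, miR-1185-2-3p, miR-410-5p, miR-496 and miR-382-3p were added after their values were seen.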

Additional observations from a re-analysis of the deposited data

How the results depend on the processing

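With 1 array per condition no replicate could be left out. No paired analysis was possible because each condition has 1 array and no test was run. The 11 members listed on both arrays were 4 with the highest Negative Control spot as the limit and 5 with the 95th percentile of these spots. The median log2 ratio of the members, 0.10, was -0.25 above the highest Negative Control spot, -0.51 with no scaling between the arrays, 0.83 with the bright control probes set equal, and -0.49 over 9 members with the Negative Control median subtracted. Scalings by 1 factor per array leave the median of the members 0.10 above that of all miRNAs by construction. With the Negative Control median subtracted it stood at -0.49 against 0.00. The count of members at least 2-fold higher, 1, was 0 with an offset of 50 or 16, with no scaling, with the 75th percentile set equal and with the Negative Control median subtracted, and 3 with the bright control probes. Leaving out miR-487b-3p, a choice made after the data were seen, also gave 0. The count at least 2-fold lower, 0, was 4 with no scaling, and 2 at 1.5-fold in place of 2-fold. The dimness of the spots limits most the ratios of members other than miR-494-3p, miR-487b-3p, miR-431-3p and miR-665. The log2 ratios of these 4 also moved with the background step. With the Negative Control median subtracted they were -0.49, 0.84, -0.91 and -0.72, in that order.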
